A study of Mus musculus with 3 samples.

Results

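The miR-146 family of the mouse consists of 2 genes, Mir146 (miR-146a) and Mir146b, each giving a hairpin with a 5p and a 3p arm. Its 4 mature arms, taken by name, are 4 of 1915 mature microRNAs (miRNAs) counted in exosomes. The vesicles were shed into culture medium by bone-marrow-derived macrophages of adult mice, strain C57BL/6 and genotype wild type. The cells had been grown with M-CSF, a growth factor that makes marrow cells into macrophages, for 24 h, and vesicles were pelleted by ultracentrifugation after 72 h in medium with exosome-free serum. There was 1 group of 3 libraries, replicates 1 to 3, with no stimulated cells, no other genotype and no library of the cells themselves. Nothing in the labels ties a library to its own culture or mouse, so the spread between libraries, and each p-value resting on it, may be technical. The pellet can also hold RNA that is not inside vesicles, and fewer vesicles of a kind and less RNA per vesicle cannot be told apart.

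MiR-146a is known as a brake on innate immune signalling. Toll-like receptors and the IL-1 receptor activate the transcription factor NF-κB, NF-κB induces the Mir146 gene, and the mature miR-146a-5p represses the adaptors TRAF6 and IRAK1 of the same pathway. MiR-146b-5p comes from another chromosome and carries the same seed, the bases 2 to 8 through which a miRNA pairs with its targets. The 3p arms are the strands of each hairpin that are usually discarded when the 5p arm is loaded into Argonaute.

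The sequences of all 4 arms, from RefSeq on build GRCm38.p6, show what the counts below can and cannot separate. Each is written 5′ to 3′ with the seed in capitals.
mmu-miR-146a-5p: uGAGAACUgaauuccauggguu
mmu-miR-146b-5p: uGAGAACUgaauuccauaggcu
mmu-miR-146a-3p: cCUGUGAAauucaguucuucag
mmu-miR-146b-3p: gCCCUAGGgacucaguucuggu
The 5p arms share the seed and their first 17 bases. They are identical at 20 of 22 positions and differ by G18A and U21C, counted from 1 at the 5′ end with the base of miR-146a first. A read of one therefore differs from the other by 2 bases near its 3′ end, and a read that ends before position 18 would fit either name. The sources used here do not give the authors' handling of such reads. The 3p arms are identical at 4 of 22 positions and have different seeds, so that a read of one differs from the other at 18 positions. Of 1623 miRNAs of the table that had a RefSeq sequence, none but miR-146a-5p and miR-146b-5p carried the seed GAGAACU, and neither 3p seed was shared with another miRNA.

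MiR-146a lies on chromosome 11, minus strand, at 43374435 to 43374456 for the 5p and 43374399 to 43374420 for the 3p arm, outside any other annotated gene of GENCODE M21. MiR-146b lies on chromosome 19, plus strand, at 46342790 to 46342811 for the 5p and 46342828 to 46342849 for the 3p arm, within an intron of the protein-coding gene Mfsd13a on the same strand. The hairpins are shown with both arms in capitals, because the arm counts are compared within each.
Mir146: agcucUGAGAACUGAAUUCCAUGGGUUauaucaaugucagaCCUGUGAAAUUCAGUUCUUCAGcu
Mir146b: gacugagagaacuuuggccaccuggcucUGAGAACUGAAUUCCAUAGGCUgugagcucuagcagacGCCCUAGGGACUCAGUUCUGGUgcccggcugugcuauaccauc
Between the arms lie 14 bases in Mir146 and 16 in Mir146b. In the fold predicted by RNAfold, 18 of the 22 bases of the 5p arm paired with the 3p arm in each hairpin.

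The libraries held 3008995, 2489984 and 3208617 miRNA counts, and values are given as counts per 1000000 miRNA counts (CPM), with 95% Wilson intervals for counting error only. As markers of the labelled cell type, the blood-cell miRNAs miR-142a-3p, miR-142a-5p and miR-223-3p were counted in every library. Together they took 0.0371%, 0.223% and 0.124% of counts in libraries 1, 2 and 3. By comparison, the liver miRNA miR-122-5p alone took 0.0322%, 0.0548% and 0.150%. The summed blood-cell markers were thus above this marker of another tissue in libraries 1 and 2 but below it in library 3. The cell type that shed the vesicles was not tested. Library 1 stood apart for many miRNAs. Of 353 miRNAs whose counts summed to 30 or more, 213 were highest and 97 lowest in library 1 after scaling to totals, and 161 and 135 with TMM factors. Results that rest on library 1 are therefore also given without it or library by library.

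The 5p arms of miR-146a and miR-146b were both among the most abundant miRNAs of these exosomes, but behaved differently between libraries. The 5p arm of miR-146a (mmu-miR-146a-5p) had 100503, 87180 and 117251 counts in libraries 1, 2 and 3, which is 33401, 35012 and 36543 CPM. Its 95% intervals were 33198 to 33604, 34785 to 35241 and 36338 to 36748 CPM, so the libraries did not overlap within counting error although they differed by at most 1.09-fold. Its mean was 34985 ± 1571 CPM (SD, n = 3), rank 8 by the mean and ranks 11, 7 and 7 in the libraries. Leaving out any 1 library kept the mean between 34207 and 35777 CPM.

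The 5p arm of miR-146b (mmu-miR-146b-5p) had 20913, 104104 and 262107 counts, or 6950, 41809 and 81688 CPM, with intervals of 6857 to 7045, 41561 to 42058 and 81389 to 81989 CPM. Library 1 was low and library 3 high, and the highest value was 11.8 times the lowest. The mean of 43483 ± 37397 CPM (SD, n = 3) placed it at rank 5, and its rank was 24, 6 and 3 in the libraries. Without library 1 it averaged 61749 CPM and without library 3 24380 CPM. By the mean its neighbours were let-7f-5p at 47892 CPM above it and miR-7a-5p at 39691 CPM below it, gaps far smaller than its own SD. For miR-146a-5p the neighbours were miR-27b-3p at 37449 CPM and miR-24-3p at 30315 CPM. The means of miR-146a-5p and miR-146b-5p also differed by less than the SD of miR-146b-5p.

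**Figure D1:**
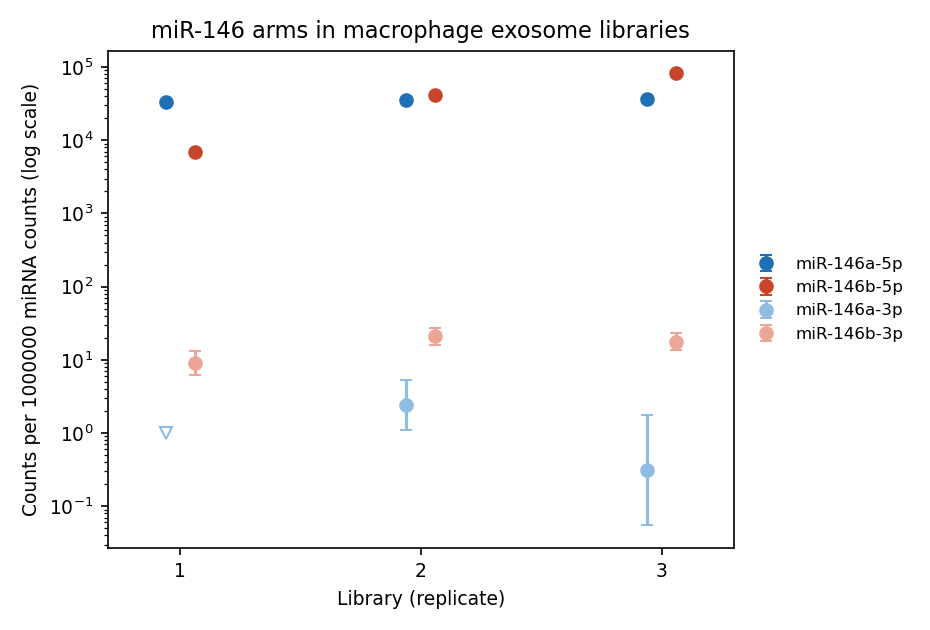
Level of the 4 miR-146 arms in each library, in counts per 1000000 miRNA counts on a log axis. Points are single libraries and bars their 95% Wilson intervals. The open triangle marks miR-146a-3p in library 1, which had 0 counts, at the level of 3 counts. MiR-146a-5p stays between 33401 and 36543, while miR-146b-5p runs from 6950 to 81688.

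The 3p arms were scarce. Of the miR-146b 3p arm (mmu-miR-146b-3p) there were 27, 52 and 57 counts, or 8.97, 20.9 and 17.8 CPM. It averaged 15.9 ± 6.18 CPM (SD, n = 3), between miR-1983 at 16.3 CPM and miR-25-5p at 15.8 CPM, and so within its SD of both. It was lowest in library 1, and its intervals in libraries 2 (15.9 to 27.4 CPM) and 3 (13.7 to 23.0 CPM) overlapped. Of the miR-146a 3p arm (mmu-miR-146a-3p) there were 0, 6 and 1 counts. The interval of the 0 in library 1 reached up to 1.28 CPM, where 3 counts are 0.997 CPM. The 6 counts in library 2 correspond to 2.41 CPM with an interval of 1.10 to 5.26 CPM. With 7 counts in all, miR-146a-3p was below the summed count of 30 needed for the test between libraries. Its mean of 0.907 CPM, rank 486, lay between those of miR-7042-3p at 0.909 CPM and miR-374c-3p at 0.902 CPM, all under the level of 3 counts in library 1.

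Differences among libraries beyond counting error were tested for all 353 miRNAs by a chi-square test against the library totals, which compares these libraries and not conditions. At an adjusted p below 0.05 (Benjamini-Hochberg), 90.1% of all tested miRNAs differed, and so did all 3 tested arms, a share close to that background. The chi-square statistic was 437.7 for miR-146a-5p (adjusted p = 3.12e-95), 195647 for miR-146b-5p (adjusted p too small to be represented) and 13.9 for miR-146b-3p (adjusted p = 0.00120). Without library 1, the call of miR-146b-3p was lost (adjusted p = 0.463), while both 5p arms still differed. The large counts behind the 5p arms make very small differences pass, as the 1.09-fold range of miR-146a-5p shows.

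How even miR-146a-5p appeared depended on the scaling. Its coefficient of variation over the libraries was 4.49% after scaling to library totals, place 2 from the lowest of 134 miRNAs averaging 100 CPM or more, whose median was 59.6%. With TMM factors it was 32.6%, place 35 of 134, against a median of 50.9%, and its highest level was 1.99 times its lowest. In the authors' deposited RPM values it was 14.8%, place 3. MiR-146b-5p was among the more variable miRNAs under each of these scalings, with 86.0%, 97.4% and 94.97% at places 104, 116 and 107 of 134.

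The order of library ratios among miRNAs does not change with scaling. From library 1 to library 3 the log2 ratio of CPM (library 1 over library 3) was -0.13 for miR-146a-5p, below the median of 0.96 over the 134 abundant miRNAs and at place 47 from the lowest. For miR-146b-5p it was -3.56, at place 8. From library 1 to library 2 the log2 ratios were -0.07 and -2.59, at places 44 and 14, against a median of 0.62. Between libraries 2 and 3, which resembled each other more, the log2 ratio (library 2 over library 3) was -0.06 for miR-146a-5p and -0.97 for miR-146b-5p, at places 45 and 12, against a median of 0.16. In all 3 library pairs both 5p arms thus stood below the median ratio, and miR-146b-5p stood further from it than miR-146a-5p.

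**Figure D2:**
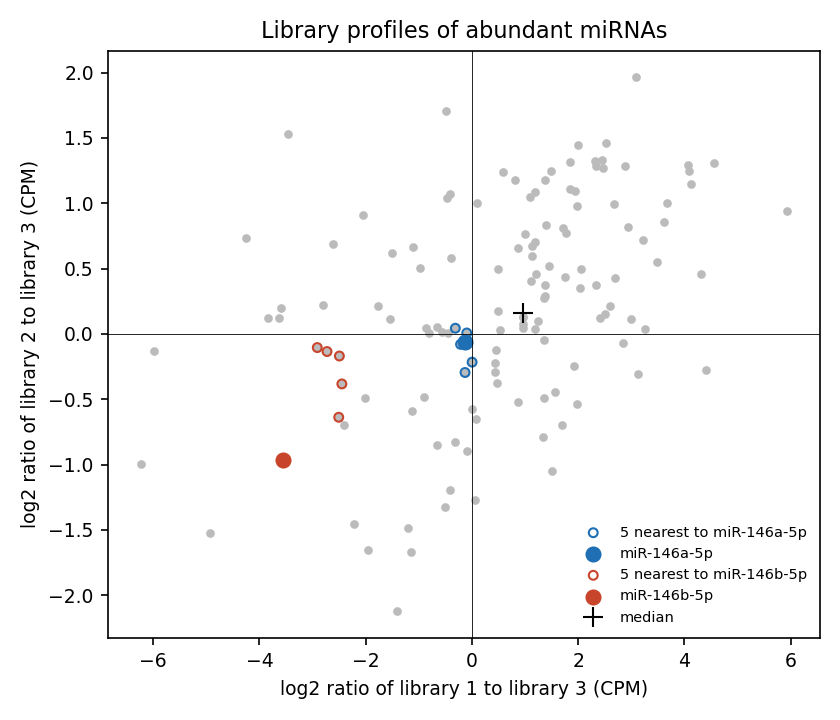
Library profiles of the 134 miRNAs that averaged 100 CPM or more. The x axis is the log2 ratio of library 1 to library 3 and the y axis that of library 2 to library 3, both in CPM. Filled points are miR-146a-5p (-0.13, -0.06) and miR-146b-5p (-3.56, -0.97), rings are the 5 miRNAs nearest to each, and the cross is the median (0.96, 0.16).

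The miRNAs whose library profile was most like each 5p arm were found by the distance between profiles of log2(CPM + 1), each centred on its own mean over the 3 libraries, among the 133 other abundant miRNAs. With 3 libraries this is a description only. For miR-146a-5p they were miR-1843a-5p (distance 0.05), miR-99b-5p (0.06), miR-222-3p (0.19), miR-28a-3p (0.20) and miR-186-5p (0.21), where the median distance was 1.41. For miR-146b-5p they were miR-200c-3p (0.65), known from epithelium, miR-182-5p (0.68) of the miR-183 cluster, miR-7a-5p (0.76), miR-26a-5p (0.78) and miR-7b-5p (0.80), with a median of 3.33. MiR-7a-5p was at 11521, 42083 and 65468 CPM and miR-182-5p at 1068, 6441 and 7071 CPM. The profile of the other 5p arm was at distance 2.51, place 113 of 133 from miR-146a-5p and place 43 of 133 from miR-146b-5p. The chosen epithelial markers miR-200b-3p and miR-200c-3p, both lowest in library 1, summed to 0.00465%, 0.0345% and 0.0261% of counts. Other miRNAs known from epithelium were divided. MiR-200a-3p (16.3, 22.5 and 18.7 CPM) and miR-200a-5p (0.997, 4.02 and 5.61 CPM) were also lowest in library 1. For miR-200a-3p the chi-square test found no difference (adjusted p = 0.262). MiR-205-5p (17.6, 87.6 and 3.74 CPM) and miR-429-3p (5.32, 5.22 and 4.05 CPM) were lowest in library 3. MiR-203-3p (15.29, 8.84 and 52.98 CPM) was lowest in library 2. The liver miRNA miR-122-5p had the same order of libraries as miR-146b-5p, at 322, 548 and 1500 CPM. Other miRNAs known from liver and gut did not have this order. MiR-192-5p, at 1067, 480 and 469 CPM, and miR-215-5p, at 12.6, 2.01 and 2.18 CPM, were highest in library 1. MiR-194-5p, at 43.5, 124 and 58.9 CPM, was highest in library 2. Of the blood-cell markers 2 of 3 were lowest in library 1 after scaling to totals, and with TMM factors miR-223-3p was too. Endothelial miR-126a-3p was also lowest in library 1, at 21.6, 43.8 and 23.7 CPM, but little below library 3. The 5p arm of that hairpin had 13, 2 and 5 counts, most in library 1. Of all 353 miRNAs tested, 97 were lowest in library 1 after scaling to totals and 135 with TMM factors. Erythroid miR-451a went the other way, at 33.9, 17.3 and 11.2 CPM, and miR-144-3p of the same lineage had 5, 2 and 0 counts. Stromal miR-143-3p was at 20.9, 14.1 and 19.6 CPM, miR-145a-5p had 1, 0 and 1 counts, and lymphoid miR-150-5p had 0, 0 and 1. The part of any of these cell types in the level of miR-146b-5p was not tested.

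The ratio of the 5p arms within a library is free of scaling, and it changed side between libraries. MiR-146b-5p over miR-146a-5p was 0.208 in library 1 (exact 95% interval 0.205 to 0.211), 1.19 in library 2 (1.18 to 1.20) and 2.24 in library 3 (2.22 to 2.25). MiR-146b-5p thus made up 17.2%, 54.4% and 69.1% of the summed counts of both 5p arms. Library 1 held mostly miR-146a-5p and the other two mostly miR-146b-5p, and the highest ratio was 10.7 times the lowest. On the log2 scale the mean was -0.28 ± 1.78 (SD, n = 3), and without library 1 it was 0.71.

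To set this beside other paralogues, the b member was compared with the a member for all miRNAs of the same number and arm, with edgeR's quasi-likelihood test and library as a term. Of 49 pairs with a summed count of at least 60, 42.9% differed at an adjusted p below 0.05. The miR-146 5p pair did not pass, with a fitted log2 ratio of b over a of -0.22 ± 0.95 (SE, adjusted p = 0.866). A sign-flip permutation test of the 3 log2 ratios was exact and gave p = 1, where the smallest p that 3 libraries allow is 0.25. These p-values do not show equal levels, since the ratio ran from 0.208 to 2.24. The ratio itself differed among libraries beyond counting error (chi-square 100641, adjusted p too small to be represented), as did 51.0% of the 49 pairs.

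By the range of its log2 ratio over the libraries, the miR-146 5p pair was the fifth widest of 37 pairs counted in every library, at 3.43 against a median of 1.39 (quartiles 0.68 and 2.41). Wider were miR-29a/b-3p at 5.88, miR-3473a/b at 4.51, miR-30a/b-5p at 3.95 and miR-23a/b-3p at 3.83. In each of these 4 pairs, unlike in miR-146, the same member was ahead in all libraries. The side changed in 7 of the 37 pairs, miR-146 included. Another of the 7 was let-7a/b-5p, which also shares its seed and differs at 2 positions, with log2 ratios of 1.26, -2.01 and -1.91 in libraries 1, 2 and 3. In miR-146 library 1 had the lowest ratio of b to a, and in let-7a/b-5p the highest. In mean log2 ratio, miR-146 stood between miR-181a/b-5p at -0.41 and miR-301a/b-5p at -0.14. The next pairs out were miR-101a/b-3p at -0.55 and miR-199a/b-3p at 0, the latter with identical counts for both names.

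**Figure D3:**
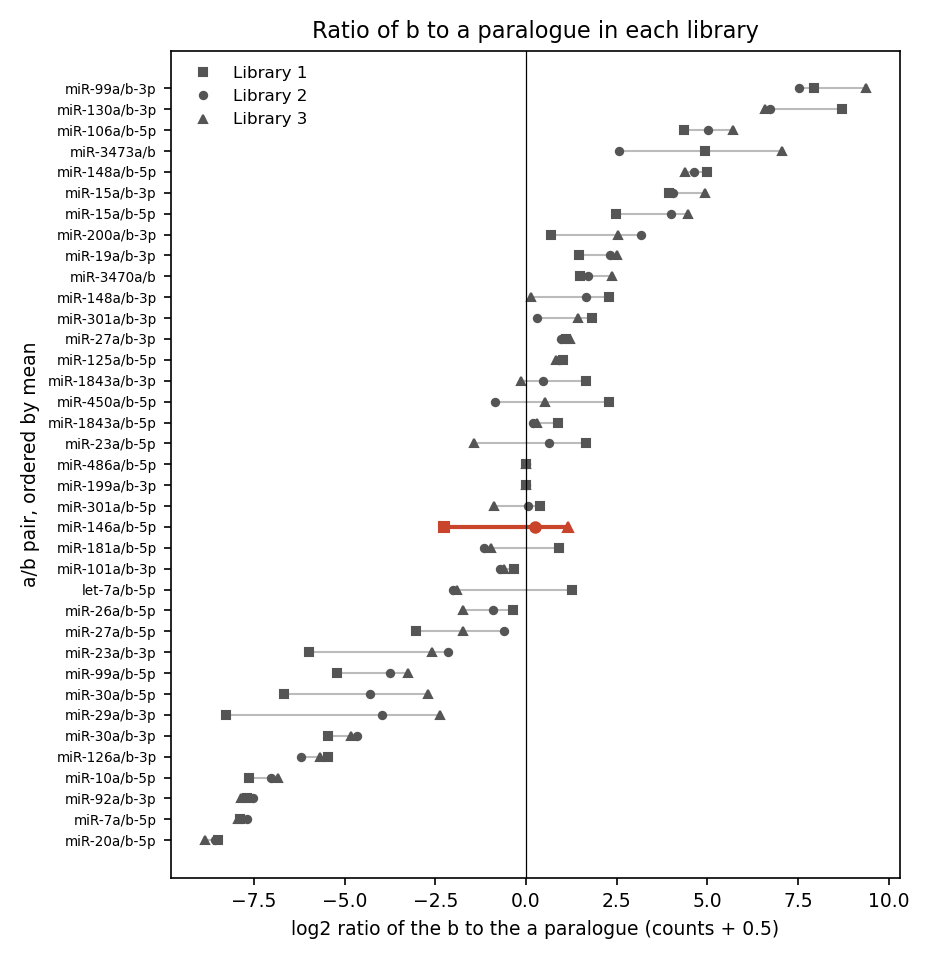
Log2 ratio of the b to the a paralogue (counts + 0.5) for 37 pairs counted in every library, ordered by the mean. Squares, circles and triangles are libraries 1, 2 and 3, and the line joins the lowest and the highest. The miR-146 5p pair, in red, runs from -2.26 to 1.16 across 0. MiR-486a/b-5p and miR-199a/b-3p sit at 0 because their deposited counts are identical.

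Among the 3p arms miR-146b-3p was above miR-146a-3p in every library, at 27 against 0, 52 against 6 and 57 against 1 counts. In the same edgeR quasi-likelihood fit the log2 ratio of b over a was 4.47 ± 0.95 (SE, adjusted p = 0.0492), among 22.4% of pairs called with b above a. The call was lost on leaving out any 1 library (adjusted p from 0.0618 to 0.151), with b above a each time. The fitted log2 ratio of b over a was thus -0.22 for the 5p arms and 4.47 for the 3p arms, and the difference between these values was not tested.

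Together the 5p arms gave the total of counts with the miR-146 seed, in which a read too short to separate them could enter under both names. The sum was 4.04%, 7.68% and 11.8% of miRNA counts in libraries 1, 2 and 3, a mean of 7.85% ± 3.90 (SD, n = 3), and the highest was 2.93 times the lowest. For comparison, the seed of miR-21a-5p took 20.1% ± 14.4, that of let-7 18.2% ± 8.20, that of miR-99a-5p 10.3% ± 6.53 and that of miR-27b-3p 5.50% ± 2.91 (SD, n = 3 each). The gaps of the miR-146 mean to those of miR-99a-5p and miR-27b-3p were smaller than the SDs of these seeds. No rank among seeds is given, since 292 miRNAs of the table, miR-30d-5p and miR-378a-3p among them, had no matched sequence and held 12.1%, 4.34% and 5.80% of counts. In library 1 miR-146a-5p supplied most of the seed, and most of the gain in library 3 over library 1 was miR-146b-5p.

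In both hairpins nearly all reads came from the 5p arm. For miR-146a, 99.9977% of the reads of all libraries were 5p, and for miR-146b 99.965%. In library 1, with 0 reads of the 3p arm, the exact 95% lower limit of miR-146a-5p over the 3p arm was 27244. Taking 3 counts for the 0 observed gives a ratio of 33501. In library 2 the ratio was 14530 (exact 95% interval 6675 to 39594), and in library 3 it was 117251 with 1 read of the 3p arm, which counting error leaves wide (lower limit 21044). For miR-146b the ratio of 5p to 3p was 775 (532 to 1176), 2002 (1527 to 2681) and 4598 (3549 to 6072) in libraries 1, 2 and 3. The intervals of miR-146b did not overlap each other, nor those of miR-146a.

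The arm ratio was tested by edgeR's quasi-likelihood test over 157 hairpins with a summed count of at least 60 and library as a term. The log2 ratio of 5p over 3p was 15.70 ± 1.26 for miR-146a (SE, adjusted p = 2.27e-27) and 10.92 ± 1.06 for miR-146b (SE, adjusted p = 2.29e-20). Of all hairpins 41.4% were called with the 5p arm above, with a median log2 ratio of 8.37, and 38.9% with the 3p arm above. MiR-146a had the highest fitted ratio of the 157, next to miR-99a at 15.04, miR-122 at 14.15, miR-192 at 13.92 and miR-21a at 12.52. Its place rests on 7 reads of the 3p arm, and its distance from miR-99a was smaller than its SE. MiR-122 and miR-192 had no read of the 3p arm, so their counts set no upper limit to their ratios. Whether miR-146a stands above these hairpins is therefore not settled. MiR-146b was at place 16. By the pooled share of the main arm, either 5p or 3p, miR-146a was at place 25 of 157 and miR-146b at place 34. Hairpins with no read of the minor arm, such as miR-122 and miR-192, stood above both in this order.

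**Figure D4:**
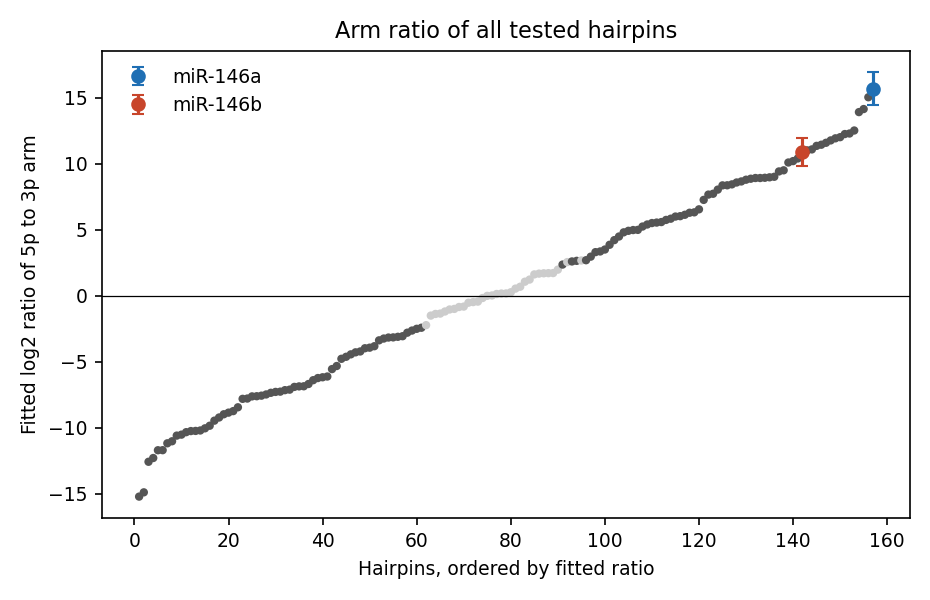
Fitted log2 ratio of the 5p to the 3p arm for 157 hairpins, in ascending order. Dark points passed an adjusted p of 0.05 and pale points did not, and bars are SEs of the 2 miR-146 hairpins. MiR-146a is the last point, at 15.70, and miR-146b lies at 10.92.

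The arms of miR-146b did not keep a fixed proportion between libraries. While the 5p arm ranged over 11.8-fold, the 3p arm ranged over 2.33-fold, and the 3p arm took 1289, 499 and 217 reads per 1000000 reads of the hairpin in libraries 1, 2 and 3. A chi-square test of the arm counts over libraries gave an adjusted p of 7.54e-16 for miR-146b, and 59.2% of the 157 hairpins passed this test. The call held without any 1 library. The range of log2 ratios was 2.57, place 46 of 104 hairpins with both arms counted in every library, whose median was 2.28, so a shift of this size was usual here. For miR-146a the same test gave an adjusted p of 0.00654 with 0, 6 and 1 reads of the 3p arm, and the call was lost without library 1 (0.0628) or library 2 (0.530).

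Other miRNAs known to be induced through Toll-like receptors or NF-κB did not share 1 pattern over these libraries. Of 11 such miRNAs, 9 had enough counts to test and all 9 differed among libraries, against 90.1% of all miRNAs. The median level of these 9 was 582 CPM, against 32.5 CPM over all miRNAs tested. Library 1 was lowest for 5 of the 9 and highest for 4, or 5 and 2 with TMM factors. Over all 353 miRNAs tested it was lowest for 97 and highest for 213, or 135 and 161 with TMM factors. MiR-155-5p, an NF-κB-induced miRNA that promotes inflammation, was at 74.8, 2388 and 829 CPM, low in library 1 like miR-146b-5p but highest in library 2. MiR-21a-5p, at 37316, 305278 and 261488 CPM, followed the same order as miR-155-5p after scaling to totals, but was highest in library 3 with TMM factors.

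Library 1 was also low for let-7e-5p, with 14.3, 826 and 907 CPM, and for miR-9-5p, with 5.65, 10.8 and 14.02 CPM. Like miR-146b-5p, both were highest in library 3. MiR-99b-5p, processed from the same cluster as let-7e, was at 4616, 5065 and 5352 CPM a spread after scaling to totals almost as narrow as that of miR-146a-5p. The remaining member of that cluster, miR-125a-5p, was at 1027, 958 and 451 CPM, highest in library 1 after scaling to totals but in library 2 with TMM factors. Of the miR-132 and miR-212 cluster the list held only the 3p arms. Both were highest in library 1 after scaling to totals, but with TMM factors miR-132-3p was highest in library 3. Levels by library were 166, 92.0 and 119 CPM for miR-132-3p and 18.6, 10.8 and 9.66 CPM for miR-212-3p. MiR-187-3p, at 10.3, 2.41 and 1.56 CPM, was highest in library 1 under both scalings, as was miR-212-3p. Not enough reads were seen of miR-147-3p, at 1 count per library, and of miR-155-3p, at 0, 5 and 0 counts, to test them.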

How the data were processed

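Small RNA of macrophage exosome pellets was extracted with TRIzol, ligated to 3′ and 5′ adapters, amplified and read as single 50-base reads, per the labels' protocols. Bcl2fastq, BWA and build mm10 are named in the submitters' processing notes. How reads matching more than 1 miRNA were counted is not stated in those sources, and no molecular identifiers are mentioned, so counts are of PCR products. Per mature miRNA the authors deposited a raw count, used in all tests, and a normalized value, RPM, used as an alternative. The denominators of the deposited RPM are larger than the miRNA totals, which are 21.4%, 17.8% and 22.9% of them.

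CPM divide a count by the summed miRNA counts of its library. Tests used edgeR 4.0.16 (R 4.3.3) and scipy 1.17.1, with Benjamini-Hochberg adjustment over all miRNAs, hairpins or pairs tested, and the scripts were tested on simulated data. Arms and a/b pairs were matched by name. SEs are the fitted log2 ratio divided by the root of the F statistic. DESeq2 1.42.0, TMM factors, size factors, RPM, filters and leaving out each library were alternatives. Hairpins were folded with RNAfold 2.7.2. Besides the 4 arms, the rule named miRNAs of the same seed, the 5 nearest profiles of each 5p arm, the neighbours by mean CPM, the 5 a/b pairs of widest range and those next in mean, and the Toll-like receptor list. The members and lists were chosen with earlier results of these data known.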

Additional observations from a re-analysis of the deposited data

How the results depend on the processing

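Scaling moved the library ratios of the 5p arms but turned few. The log2 ratios of miR-146a-5p for libraries 1 over 2, 1 over 3 and 2 over 3 were -0.68, -0.99 and -0.31 with TMM factors, -0.72, -1.01 and -0.29 with DESeq2 size factors, and 0.20, -0.23 and -0.43 in the authors' RPM, so the first turned in RPM. Those of miR-146b-5p were -3.20, -4.42 and -1.21 with TMM factors, -3.24, -4.43 and -1.19 with DESeq2 size factors and -2.32, -3.65 and -1.33 in RPM. For miR-146b-3p the ratio of library 2 over 3 was 0.23, and -0.015 with TMM factors and -0.13 in RPM. The mean of miR-146a-5p was 7252 RPM, which has another denominator.

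Leaving out each library in turn gave 177 to 284 miRNAs that differed among libraries, in place of 318 (177 without library 1, with fewer libraries and fewer miRNAs tested). It gave 0 to 12 a/b pairs with b above a in place of 11, and 0 to 14 with a above b in place of 10. The 0 arose in edgeR without library 2, where 24 of 49 pairs had an unadjusted p below 0.05. The counts without library 3 were 4 and 6. DESeq2 with all libraries called 33 pairs in place of 21, of which 19 had a above b. The fitted log2 ratio of the miR-146 5p pair ranged from -1.004 to 0.71, turning without library 1, and that of the 3p pair from 3.95 to 6.15 with each call lost. Without the filter on low counts the 3p pair also lost its call, at 4.46 (adjusted p = 0.0592). The chi-square statistic of the miR-146a arm share ranged from 0.857 to 6.92 in place of 11.4. The cause of these changes was not tested.

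The library term is a replicate block, since paired counts come from the same library. With no replicate block the 5p pair was at 0.31 (adjusted p = 0.816) and 18 pairs were called with a above b. The calls of both miR-146 hairpins and of the 3p pair held without the block. With a minimum of 10 CPM, 2 of the 5 miRNAs nearest to miR-146a-5p stayed among the nearest. Depth limits the 3p arm of miR-146a, with 7 counts in all.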
